A study of Mus musculus with 12 samples.

Results

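Young HSCs were compared with aged HSCs that had been treated with CASIN, to describe what still separated the treated aged cells from young cells. The comparison used every sample that its labels name as a young control or as CASIN-treated, which is 7 of the 12 RNA-seq samples of the series, and all 22548 genes of the expression matrix. The 4 young samples (replicates 2 to 5) were untreated long-term HSCs (LT-HSCs) of C57BL/6 mice 2 to 4 months old. The 3 CASIN samples (replicates 1 to 3) were LT-HSCs of C57BL/6 mice 20 to 26 months old that received 5 µM CASIN. According to the labels, cells of all groups were kept for 16 h in HBSS with 10% FBS at 3% O2, and at least 200 sorted cells went into a library, whereas the methods of the study name a larger pool. The 5 untreated aged samples also entered the statistical fit and are otherwise given only as a reference level. The labels speak of at least 3 individuals per arm but tie no library to an animal, so the p-values measure the spread between these samples, which may be technical in part.

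LT-HSCs are the rare bone marrow cells that renew themselves and give rise to all blood lineages. With age they become more numerous but engraft less well and lean towards the myeloid lineages. Cdc42 is a small RhoGTPase that cycles between a GTP-bound active and a GDP-bound inactive form and organises cell polarity and the actin cytoskeleton. Its activity rises in aged HSCs, and CASIN is a small molecule that inhibits it.

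The libraries differed in how many genes they detected, and CASIN replicate 2 stood apart from the other 6. In each library all genes without signal share one lowest value, and a gene was counted as detected only above it. The young libraries detected 6078, 8652, 9673 and 6567 genes (replicates 2, 3, 4 and 5). The CASIN libraries detected 6845, 20013 and 7288 genes (replicates 1, 2 and 3). CASIN 1 and CASIN 3 thus lay inside the young range, whereas CASIN 2 detected more genes than any other library. On average 34.3% ± 7.56 (SD, n = 4) of genes were detected in the young and 50.5% ± 33.2 (SD, n = 3) in the CASIN libraries. The difference of 16.1 points lay within the replicate spread by an exact two-sided permutation test (p = 0.457, where the smallest possible p is 0.0286). Without CASIN 2 the difference was -3.0 points (exact two-sided permutation test, p = 0.733, smallest possible p 0.0667). When a gene had to exceed a log2 value of 3, the libraries were alike, with 27.0% to 32.2% of genes each. The values look quantile normalized, which by itself brings such shares close together. The lowest value itself was 0.67, 0.48, 0.43 and 0.65 in the young libraries and 0.63, 0 and 0.58 in CASIN 1, 2 and 3.

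**Figure D1:**
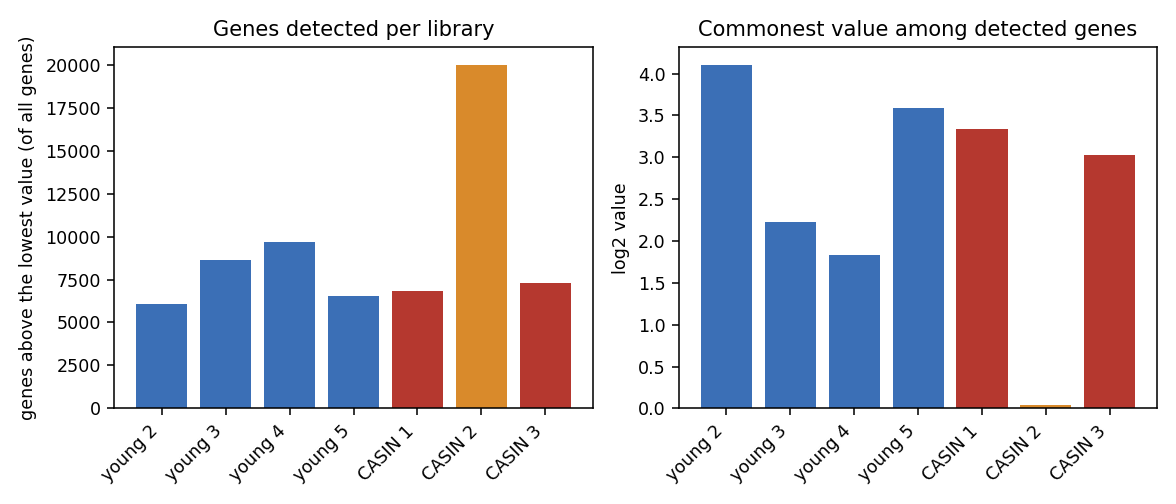
Left, number of genes above the lowest value of each library (bars, 1 library each). Right, the commonest log2 value among detected genes. Young libraries are blue, CASIN 1 and 3 red and CASIN 2 orange. CASIN 2 detected 20013 genes against 6078 to 9673 in the young libraries, and its commonest detected value was 0.04 against 1.84 to 4.11.

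A library with few detected genes also gave its weakest genes a high value. The commonest value among detected genes was 4.11, 2.22, 1.84 and 3.59 in young replicates 2 to 5 and 3.34, 0.04 and 3.03 in CASIN 1 to 3. A value near 3 was therefore the weakest common signal in CASIN 1 and CASIN 3, whereas young 3, young 4 and CASIN 2 had many detected genes below it. A gene detected in none of the 7 libraries still had a difference of -0.16 log2 units (CASIN minus young) from the unequal lowest values, or 0.04 without CASIN 2. For a gene undetected in every young library, the young values are these lowest values alone, with an SD of 0.12. The p-value of such a gene holds no spread of expression between young samples. The depth of the libraries is unknown because the files hold no read counts. In bulk samples, fewer cells that express a gene and less RNA of it per cell cannot be told apart.

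The label of the cells was checked against 36 genes of HSC identity. The young libraries detected 11, 17, 17 and 14 of them, and the CASIN libraries 16, 35 and 14. The transcription factors Meis1, Hlf and Runx1 were present in all 7 libraries. Meis1 stood at 7.20, 6.58, 7.12 and 6.89 in young and at 8.28, 7.36 and 8.09 in CASIN-treated samples. Defining surface markers were largely missing at this sensitivity. Kit (c-Kit) and Ly6a (Sca-1), the proteins of the sort gate, were detected in no young library and of the CASIN libraries in CASIN 2 alone, at 6.80 and 1.16. Slamf1 (CD150) was detected in young 4 and CASIN 2, at 3.35 and 0.51.

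Markers of other blood cells were present as well, in both groups. Of 20 lymphocyte markers the young libraries detected 6 to 10 and the CASIN libraries 10, 20 and 9. Cd3d, a chain of the T cell receptor complex, was at 8.26 to 9.98 in young and 8.50 to 8.77 in CASIN-treated samples, and Bcl11b, a T lineage factor, at 8.64 to 9.76 and 8.11 to 9.07. Cd4 (3.03 to 7.23), Cd8a (3.03 to 7.63) and Il7r (3.88 to 7.15) were also detected in all 7 libraries. Some T cell markers were missing in most libraries. Cd3g and Lck were detected in no young library, and Cd3e in young 3 (3.02) and CASIN 2 (5.60) only. Of 18 granulocyte and monocyte markers 3 to 4 were detected in young and 6, 13 and 4 in CASIN libraries. Of the 7 libraries, Mpo and Elane were found in CASIN 2 only, whereas Itgam was detected in all, at 7.48 to 9.17. Of 17 erythroid and megakaryocyte markers 2 to 6 were detected in young and 1, 12 and 5 in CASIN libraries. Gata1, Klf1 and Hbb-b1 were at the lowest value in all 7, whereas Itgb3 was detected in all 7, at 5.67 to 7.79. Of 14 endothelial and stromal markers 2 to 10 were detected in young and 3, 14 and 3 in CASIN libraries. The part of these markers in the differences given next was not tested.

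No gene passed the adjustment over all genes between CASIN-treated aged and young HSCs. In limma, fitted on all 12 samples as 3 groups, 0 of 22548 genes (0%) had a Benjamini-Hochberg adjusted p under 0.05. An unadjusted p under 0.05 was reached by 968 genes (4.29%), of which 654 were higher (2.9%) and 314 lower (1.39%) in CASIN-treated HSCs. An unadjusted p under 0.01 was reached by 242 genes (1.07%), 167 of them higher (0.741%) and 75 lower (0.333%). An even spread of p-values would place 225 genes under 0.01. The absence of adjusted calls depended on single libraries, since leaving out 1 library at a time gave between 1 and 45 genes, and the largest number came without CASIN 2.

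Without CASIN 2, 45 genes (0.2%) had an adjusted p under 0.05 in limma, 43 higher (0.191%) and 2 lower (0.00887%) in the remaining CASIN samples. Of the 43 genes, 35 were detected in no young library, so their young values were lowest values only. CASIN 2, which this fit did not use, had 5 of the 43 at its lowest value and 4 above a log2 value of 3. The 4 were Trim27, Polr1d, Plin5 and Tmx3, chosen for naming after their values were seen. For both lower genes CASIN 2 lay above every young library. With only genes detected in at least 3 of the 7 libraries kept, the fit without CASIN 2 gave 1 adjusted call. That setting was chosen after seeing the data. Without CASIN 2 an unadjusted p under 0.05 was reached by 1312 genes (5.82%), 945 higher (4.19%) and 367 lower (1.63%). Under 0.01 there were 354 genes (1.57%), 256 higher (1.14%) and 98 lower (0.435%), and 141 of the 354 were shared with the 242 of the full comparison, which is 39.8% and 58.3% of the respective lists. All 141 had the same sign.

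The genes with the smallest p without CASIN 2 were chosen on CASIN 1 and CASIN 3, so the level of CASIN 2 in them is only described. Among all 43 higher genes CASIN 2 was above every young library in 20. Pcdha9, a clustered protocadherin, was at the lowest value in all 4 young libraries and at 8.24, 1.32 and 9.80 in CASIN 1, 2 and 3. Zfp758, a zinc finger gene, was likewise undetected in young and stood at 5.48, 2.22 and 5.67. Naa35, a subunit of an N-terminal acetyltransferase, stood at 6.39, 1.45 and 5.99. In these genes CASIN 2 lay well below CASIN 1 and CASIN 3. Mfap2 (6.22, 0.86 and 7.03), Serpina11 (5.62, 0.75 and 7.40) and A930018P22Rik (5.44, 0 and 5.34, the middle value being undetected) had the same order. The adjusted p of the 6 genes without CASIN 2 was 0.00064 to 0.00418 in limma, and 0.314 to 1.0 with it. Alternative treatments of the data gave these genes adjusted p-values up to 1.0. Pcdha genes share their last exons, so the assignment of reads among them is uncertain. Rpl23a, a protein of the large ribosomal subunit, went the other way, with 5.68, 6.18, 6.12 and 5.38 in young and 0.63, 7.05 and 0.58 in CASIN-treated samples, where 0.63 and 0.58 are undetected. Bnip2, whose product has been described to bind Cdc42 and its GTPase-activating protein, stood at 6.16, 6.27, 5.07 and 7.04 in young and at 0.63, 7.56 and 0.58 in CASIN-treated samples. For both genes the groups separate only if CASIN 2 is left aside. Rpl23a has processed copies elsewhere in the genome and its value is uncertain for that reason.

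Presence and absence of signal were also counted, which needs no model. No gene was detected in all 4 young and none of the 3 CASIN libraries (0%). The reverse, detection in all 3 CASIN and no young library, held for 158 genes (0.701%). With CASIN 2 set aside, the counts were of similar size in both directions, namely 150 genes (0.665%) in all 4 young and neither CASIN 1 nor CASIN 3, and 169 genes (0.75%) in CASIN 1 and CASIN 3 and no young library. The first set asks for signal in 4 libraries and the second in 2, so the sets are not matched in how often their genes are seen.

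CASIN 2 detected all 150 young-side genes, against 88.8% of all genes, with a median of 4.00 and 86 of them (57.3%) above a log2 value of 3, which 30.2% of all genes exceeded. Of the 169 genes on the CASIN side it detected 158, but with a median of 1.16 and only 33 (19.5%) above 3. The untreated aged libraries, which the sets were not chosen on, detected 117 to 147 of the 150 genes with medians of 2.48 to 3.45, and 86 to 143 of the 169 genes with medians of 1.16 to 1.46. Of the 150 genes 87 (58.0%) and of the 169 genes 26 (15.4%) were detected in all 5 aged libraries, against 27.0% of all genes. The absence of the young-side genes from CASIN 1 and CASIN 3 was fixed by how that set was chosen. Its genes were also chosen for signal in all 4 young libraries, so all genes are not a matched reference. In the set of the CASIN side, the medians of CASIN 2 and the aged libraries were near those of all genes.

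**Figure D2:**
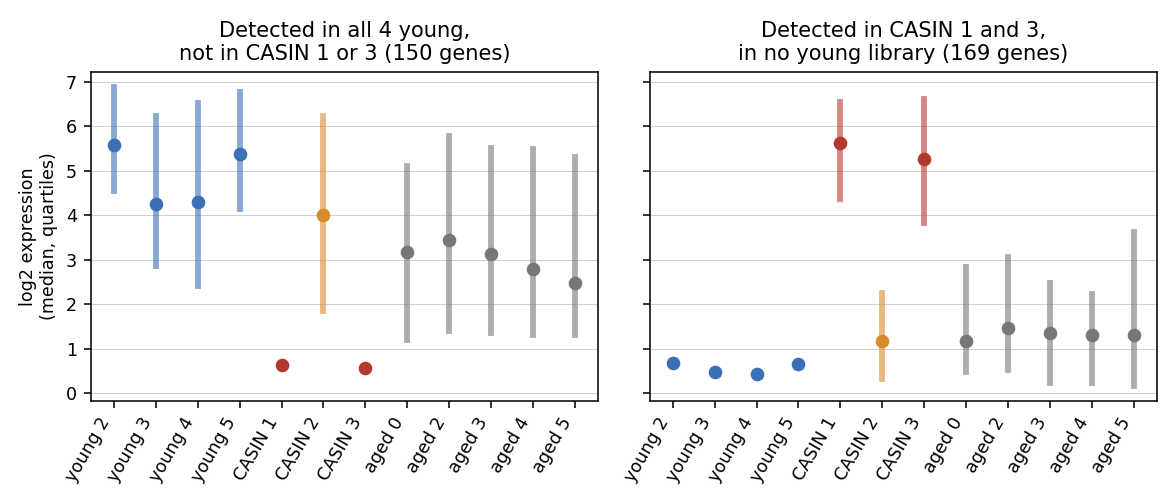
Median (points) and quartiles (bars) of the log2 expression of 2 gene sets in each library, with young libraries in blue, CASIN 1 and 3 in red, CASIN 2 in orange and untreated aged libraries in grey. Detection in the young libraries, CASIN 1 and CASIN 3 defines the sets. In the 150 young-side genes CASIN 2 has a median of 4.00, and in the 169 genes of the other side 1.16.

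Among the young-side genes with the highest levels were Chd2, a chromatin remodeller, and Esrrg, an orphan nuclear receptor. Chd2 stood at 6.91, 6.61, 7.96 and 6.46 in young, was undetected in CASIN 1 and CASIN 3, and stood at 7.38 in CASIN 2. Esrrg stood at 8.69, 7.44, 6.73 and 6.72 in young and at 4.37 in CASIN 2. The level of CASIN 2 thus lay within the young range for Chd2 and below it for Esrrg. Gm14005 (5.77 to 7.98 in young, 7.32 in CASIN 2) resembled Chd2. Pcdh9, a protocadherin (5.77 to 7.32 in young, 2.03 in CASIN 2), and Dnajc6, the clathrin uncoating factor auxilin (5.64 to 7.24 and 1.97), were low in CASIN 2 too.

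Of the 158 genes that all 3 CASIN and no young library detected, the 5 with the highest lowest-CASIN value are given. Fam133b stood at 6.60, 7.04 and 6.69 in CASIN 1, 2 and 3. Frem2, an extracellular matrix protein, stood at 6.55, 7.74 and 6.75, and Tmem183a at 6.39, 5.83 and 7.25. Spcs2, a subunit of the signal peptidase, stood at 6.41, 5.64 and 6.97, and Cdca3, a gene of mitotic entry, at 5.93, 5.38 and 8.78. All 5 were at the lowest value in the 4 young libraries. In untreated aged samples Frem2 stood at 1.36 to 7.93, Fam133b at 0.22 to 7.64 and Tmem183a at 0.98 to 6.62, so that some aged libraries reached the CASIN level. Spcs2 (0.22 to 4.95) and Cdca3 (0.07 to 4.93) stayed below every CASIN library. In limma the differences of the 5 genes were 5.78 to 6.45 log2 units, with adjusted p-values of 0.262 to 0.514 (0.00596 to 1.0 over the alternatives).

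When levels rather than detection were compared, and undetected values were treated as one lowest level, the groups did not overlap for 366 genes higher (1.62%) and 152 genes lower (0.674%) in CASIN-treated HSCs. Without CASIN 2 these were 635 (2.82%) and 412 genes (1.83%). The 8 genes with the smallest p in each direction are described next. In the higher direction they were Trim27, Polr1d, Plin5, Ube2k, Ipo9, Tcaim, Usp32 and Phc3.

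Trim27, a ubiquitin ligase of the TRIM family (chromosome 13, 21179450 to 21194723, mm10), was detected in no young library and stood at 4.79, 6.62 and 5.34 in CASIN 1, 2 and 3. The difference was 5.02 log2 units (SE 0.59, limma adjusted p = 0.0701, or 0.0192 without CASIN 2). Polr1d, a subunit shared by RNA polymerases I and III (chromosome 5, 147076715 to 147111361), stood at 5.93, 4.94 and 6.05 in CASIN-treated samples and in young at 2.03 in replicate 4 and at the lowest value otherwise. Its difference was 4.68 (SE 0.60, limma adjusted p = 0.0701, or 0.0192 without CASIN 2). Plin5, a perilipin that coats lipid droplets (chromosome 17, 56111597 to 56117606), was undetected in young and stood at 4.37, 4.86 and 3.03 in CASIN-treated samples. Its difference was 3.52 (SE 0.45, limma adjusted p = 0.0701, or 0.0236 without CASIN 2), and 3.03 is the weakest common signal of CASIN 3. Over the alternatives the limma adjusted p of these 3 genes ran from 0.0102 to 1.0, the upper end coming from the limma-trend setting. All 3 CASIN libraries lay above all 4 young libraries in each of these genes, as the choice of non-overlapping genes required. The untreated aged samples lay between 0.16 and 2.34 for Trim27, 0.07 and 1.90 for Polr1d, and 0.16 and 0.48 for Plin5, which is below every CASIN library.

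The other 5 higher genes were detected in at most 2 young libraries. Ube2k, a ubiquitin-conjugating enzyme, stood at 7.79, 7.13 and 6.94 in CASIN-treated samples and among young libraries was detected in replicate 4 only, at 3.35. Ipo9, a nuclear import receptor, stood at 6.37, 6.89 and 7.59 and in young only in replicate 3, at 3.92. Tcaim, a mitochondrial protein, stood at 3.34, 4.62 and 5.26 and in no young library. Aged samples lay at 1.88 to 5.10, 0.89 to 2.48 and 1.01 to 3.11 for these 3 genes. Usp32, a deubiquitinase, stood at 5.97, 5.97 and 6.38 and in young only in replicate 4, at 3.58. Phc3, a polyhomeotic subunit of Polycomb repressive complex 1, stood at 6.77, 6.70 and 8.04 against 4.09 and 2.92 in young 3 and young 4. For these last genes aged samples were at 5.13 to 7.0 and 6.40 to 7.71, near the CASIN-treated samples. The differences of the 5 genes were 3.85 to 6.00 log2 units with limma adjusted p-values of 0.148 to 0.207.

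In the lower direction the 8 genes were Ssbp3, Phf12, Ldlrad2, Senp7, Rbm46, BC048546, Pgbd1 and Clk3. Ssbp3, a partner of LIM-domain transcription complexes (chromosome 4, 106911470 to 107049694), stood at 7.89, 7.66, 6.77 and 4.64 in young and at 0.63, 1.37 and 0.58 in CASIN-treated samples, the first and last of which are undetected. The difference was -5.88 log2 units (SE 0.86, limma adjusted p = 0.148, or 0.0626 without CASIN 2, and 0.0139 to 1.0 over the alternatives). Phf12, a component of Sin3 corepressor complexes, stood at 4.55, 7.07, 5.32 and 7.49 in young and at 1.35 in CASIN 2. Senp7, a SUMO protease, stood at 6.79, 5.40, 5.72 and 6.82 in young and at 0.91 in CASIN 2. Both were undetected in CASIN 1 and CASIN 3, as were Rbm46, an RNA-binding protein of germ cells, BC048546, Pgbd1, derived from a piggyBac transposase, and Clk3, a kinase of splicing factors. The latter 4 genes stood at 3.24 to 7.20 in young and at 0.15 to 1.52 in CASIN 2.

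Ldlrad2, with an LDL receptor class A domain, was the only one of these 16 genes detected in all 7 libraries. It stood at 7.09, 6.51, 8.52 and 6.67 in young and at 3.92, 3.98 and 3.03 in CASIN-treated samples, a difference of -3.56 (SE 0.62, limma adjusted p = 0.259, or 0.0937 to 1.0 over the alternatives). Aged samples stood at 1.88 to 3.57 for Ldlrad2 and at 0.23 to 2.48 for Ssbp3, below the young samples in both cases. For Phf12 and Senp7 they stood at 3.01 to 6.02 and 1.52 to 6.11, between or within the groups. Over the 75 genes lower at an unadjusted p under 0.01, the mean of the untreated aged samples lay on the CASIN side of the midpoint in 49 (65.3%). Over the 167 higher genes it did so in 60 (35.9%), against 51.1% and 50.0% of all genes with a difference of the same sign. The genes were chosen on the values that set the midpoint, so all genes are not a matched reference. Of the 75 genes 52 were detected in neither CASIN 1 nor CASIN 3, and of the 167 genes 71 in no young library. The shares are only described.

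**Figure D3:**
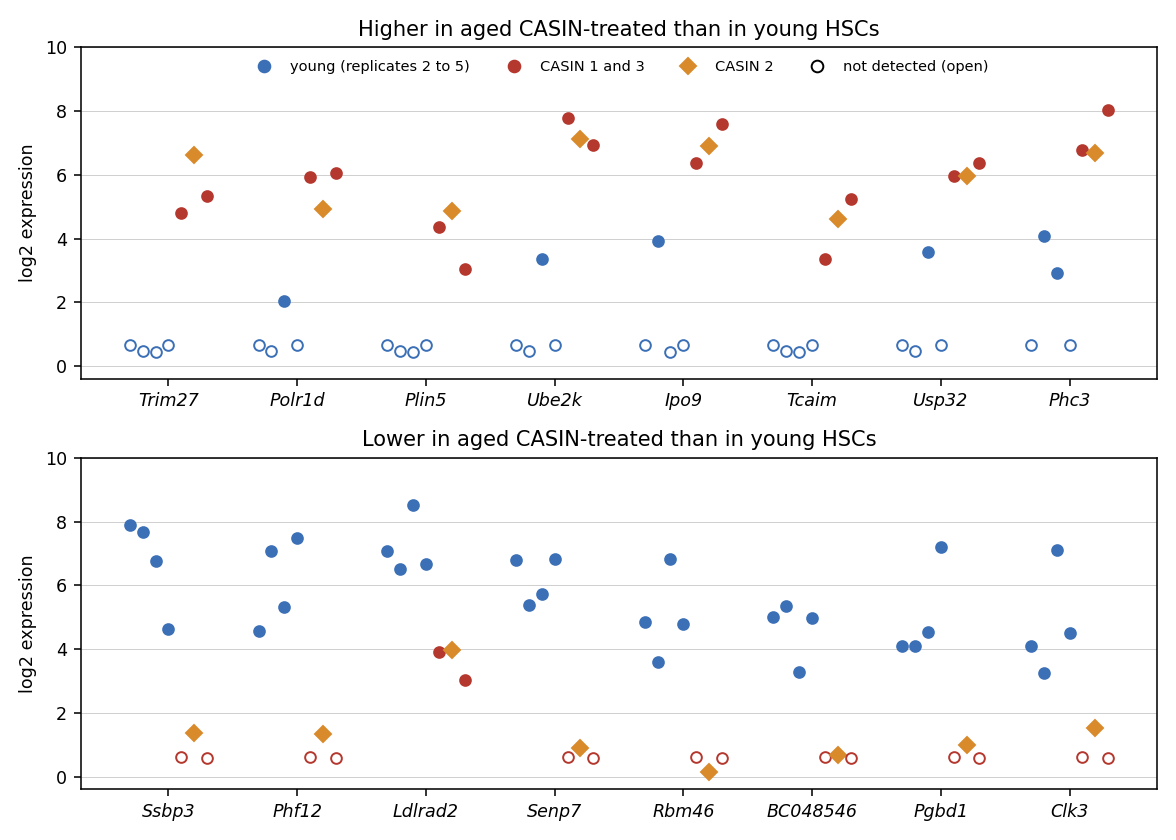
Log2 expression in each library of the 8 genes with the smallest p in each direction among genes whose groups do not overlap. Blue circles are young libraries, red circles CASIN 1 and 3, orange diamonds CASIN 2, and open symbols undetected values. By this choice the 3 CASIN libraries lie on one side of the 4 young libraries for all 16 genes. Most low values are undetected.

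Genes detected in every library avoid the unequal lowest values. There were 2242 such genes (9.94%), and their median difference was -0.04 log2 units. Of these, 17 were higher and 8 lower in CASIN-treated HSCs at an unadjusted p under 0.01, 1.12% against 1.07% of all genes, so the share was near that of all genes. Tug1, a nuclear long noncoding RNA, stood at 5.01, 4.16, 2.48 and 3.59 in young and at 6.87, 7.77 and 7.62 in CASIN-treated samples, a difference of 3.61 (SE 0.60, limma adjusted p = 0.207, or 0.101 to 1.0 over the alternatives). Kmt2d, a methyltransferase of histone H3 lysine 4, stood at 6.06, 6.64, 5.36 and 6.72 in young and at 10.04, 8.19 and 8.45 in CASIN-treated samples. Trpm2, a cation channel, stood at 5.26, 5.51, 5.27 and 6.55 against 7.0, 8.22 and 8.59. In these 3 genes, and in Tyr (tyrosinase) and Tpgs2 (a tubulin polyglutamylase subunit), every CASIN library was above every young library, by 2.29 to 3.61 log2 units on average. Aged samples stood at 5.86 to 6.94 for Tug1, 7.31 to 9.02 for Kmt2d and 7.20 to 8.20 for Trpm2, above the young samples.

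The 5 leading lower genes detected throughout included Ldlrad2. Acer1, an alkaline ceramidase, stood at 8.26, 8.09, 8.11 and 7.22 in young and at 3.92, 6.38 and 5.92 in CASIN-treated samples. Serpinb1c, a serpin, stood at 6.86, 6.06, 4.94 and 6.81 against 3.34, 2.83 and 3.82. In both genes the groups did not overlap. Mrps24, a protein of the mitochondrial ribosome (7.74, 6.70, 3.58 and 7.25 against 3.92, 0.21 and 3.03), overlapped in young 4. Ntng1, a netrin G (8.72, 8.83, 7.60 and 5.09 against 3.34, 6.18 and 3.03), overlapped in CASIN 2.

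Similarity between whole libraries was also described by Pearson's r across genes, which share depth and normalization and are not independent replicates. Over the 2242 genes detected throughout, r averaged 0.625 between young libraries (6 pairs), 0.601 between young and CASIN libraries (12 pairs) and 0.576 between CASIN libraries (3 pairs). Over all genes r was 0.400 between CASIN 1 and CASIN 3, and averaged 0.415 between these and young. CASIN 2 had an r of 0.477 with CASIN 1 and 0.503 with CASIN 3, and of 0.522 on average with young. The single pair of CASIN 1 and CASIN 3 thus lay below the averages of all these pairs. Of the 20 highest genes of each library, 15 were the same in all 7, among them Kcnq1ot1, Gm17821 and Zfp488.

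Genes of the Cdc42 pathway were examined as the pathway that CASIN acts on. Cdc42 itself, on chromosome 4 (137319696 to 137357759), stood at 0.67, 6.15, 5.27 and 3.59 in young and at 0.63, 6.39 and 7.25 in CASIN-treated samples. It was thus undetected in young 2 and in CASIN 1, and the groups overlapped, with a difference of 0.84 (SE 1.66). Of 37 genes of the pathway, 3 were higher and 2 lower at an unadjusted p under 0.05, 13.5% against 4.29% of all genes, and none after adjustment. Without CASIN 2 there were 1 higher and 1 lower, 5.41% against 5.82%. Rac1, a related RhoGTPase, stood at 7.27, 2.85, 6.71 and 4.15 in young and in CASIN-treated samples was detected in CASIN 2 only, at 0.29. Cdc42bpb, a Cdc42-binding kinase, was the other lower gene, at 8.41, 5.98, 5.79 and 0.65 in young and detected in CASIN 2 only, at 0.87, of the CASIN libraries. The higher genes were Arhgdib, an inhibitor of GDP release from small GTPases (6.18 in CASIN 2 and 7.36 in CASIN 3), Arhgap1, a GTPase-activating protein of Cdc42 (6.58 in CASIN 1 and 5.46 in CASIN 2), and Pak2, a kinase effector of Cdc42 and Rac. Arhgdib and Arhgap1 were undetected in every young library and in 1 CASIN library each. Pak2 stood at 4.94, 3.51 and 3.03 in CASIN-treated samples and in young at 4.23 in replicate 4 only.

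Of 18 genes of the nuclear lamina and envelope 0 were higher and 2 lower at an unadjusted p under 0.05. This is 11.1%, against 4.29% of all genes in both directions together and 1.39% lower. Sun1, of the complex that links the nucleus to the cytoskeleton, stood at 5.49, 6.31, 2.03 and 4.64 in young and in CASIN-treated samples at 2.94 in CASIN 2 only. Tor1aip1, an inner nuclear membrane protein that binds lamins, stood at 2.50 to 6.70 in young and at 1.77 in CASIN 2 only. Lmna, the gene of lamin A/C, was detected in young 3 (6.13), young 5 (6.14) and CASIN 2 (5.51), with a difference of -1.11 (SE 1.99). Among 27 Polycomb and DNA methylation genes 2 were higher, Phc3 and Bmi1, and 1 was lower, Cbx2, together 11.1% against 4.29% of all genes. Without CASIN 2 both lists had 2 genes (11.1% and 7.41%, against 5.82%). Bmi1, a Polycomb subunit needed for HSC self-renewal, was undetected in young and stood at 4.86 in CASIN 1 and 5.63 in CASIN 2. None of 17 genes of H4K16 acetylation passed an unadjusted p of 0.05. Their median difference was -0.42, against -0.09 over all genes.

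For the genes that the study names and that are given here, the values of both groups overlapped. Actb, the gene of beta-actin, was detected in all 7 libraries, at 2.92 to 7.73 in young and 4.15 to 5.52 in CASIN-treated samples. Ptprc (CD45) had a difference of -0.11 (SE 1.80) and Hoxb4 of -0.69 (SE 2.14), and the direction of both, as of Cdc42, changed when single libraries were left out. Mllt6, a cofactor of histone methylation, stood at 4.55, 2.50, 2.26 and 0.65 in young and at 3.34, 6.53 and 6.97 in CASIN-treated samples, with a difference of 3.12 (SE 1.36, limma adjusted p = 1.0, or 0.683 to 1.0 over the alternatives).

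In the other gene lists too, no gene passed the adjustment in the full comparison, and counts at an unadjusted p under 0.05 are read against 4.29% of all genes. Of 22 immediate early and stress genes 2 were higher and 1 lower (13.6%). Jund, an AP-1 factor, stood at 0.67, 5.71, 2.78 and 0.65 in young and at 7.85, 6.77 and 5.99 in CASIN-treated samples. Nr4a1, an orphan nuclear receptor, stood at 4.37, 6.02 and 6.81 and in young at 4.43 in replicate 4 only, whereas Btg2, an antiproliferative gene, stood at 4.11, 3.24, 2.40 and 6.35 in young and at 0.68 in CASIN 2 only. Of 77 cytosolic ribosomal protein genes 0 were higher and 4 lower, among them Rpl9, Rpl23a and Rpl31. This is 5.19%, against 4.29% of all genes in both directions together and 1.39% lower. These genes were undetected in CASIN 1 and CASIN 3. Without CASIN 2, 4 of the ribosomal list were higher and 4 lower (10.4%, against 5.82% of all genes, 4.19% higher and 1.63% lower). Ribosomal protein genes have many processed copies, and their values are uncertain.

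Fanca, of the Fanconi anemia repair pathway, had the smallest p among 24 DNA damage and repair genes, of which 0 were higher and 2 lower (8.33%). It stood at 6.62, 7.40, 5.23 and 6.69 in young and at 0.63, 1.15 and 3.03 in CASIN-treated samples, a difference of -4.88 (SE 1.04, limma adjusted p = 0.402, or 0.217 to 1.0 over the alternatives), and the groups did not overlap. Chek2, a checkpoint kinase, was the other lower gene of that list, at 4.11, 5.51, 2.03 and 5.73 in young and at 2.85 in CASIN 2 only. Of 26 actin and tubulin genes 0 were higher and 2 lower. This is 7.69%, against 4.29% of all genes in both directions together and 1.39% lower. Pfn1 (profilin) stood at 3.49 to 6.56 in young and 0.63 to 3.82 in CASIN-treated samples, and Tmsb10 (thymosin beta) at 3.59 to 7.48 and 0.58 to 5.23. Of 21 Wnt genes Axin1 was higher and Lrp5 and Wnt5a were lower (14.3%). The ligand Wnt5a stood at 4.11, 5.90, 8.43 and 4.15 in young and at 3.02 in CASIN 2 only.

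In the metabolic lists Hk1, a hexokinase, was the one higher gene of 24 in glycolysis and hypoxia (4.17%), at 5.70, 5.51 and 5.80 in CASIN-treated samples and at 6.41 in young 3 only. Cycs (cytochrome c), detected throughout at 4.55, 5.36, 5.64 and 5.33 in young and 8.74, 7.42 and 5.67 in CASIN-treated samples, and Sdhc, undetected in young, were the 2 higher genes of 38 in oxidative phosphorylation (5.26%). Of 25 interferon genes Rsad2 was higher, at 2.22 to 4.11 in young and 3.85 to 7.37 in CASIN-treated samples, and the receptor gene Ifngr1 was lower (8.0%). Of 32 cell cycle genes Mcm7 was higher (3.1%). Among HSC identity genes 2 of 36 were higher (5.56%), Myct1 at 7.78, 1.51 and 6.88 and Bmi1, both undetected in young. Of the endothelial and stromal markers Lepr was higher, at 7.70, 7.21 and 6.65 against 0.65 to 6.22 in young, and Col1a1 lower (2 of 14, 14.3%). Of 14 nuclear noncoding RNAs Tug1 was higher (7.14%). No gene passed in the lymphocyte, granulocyte and erythroid marker lists, among 25 genes known to be higher in aged HSCs, or in autophagy, integrins and apoptosis.

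**Figure D4:**
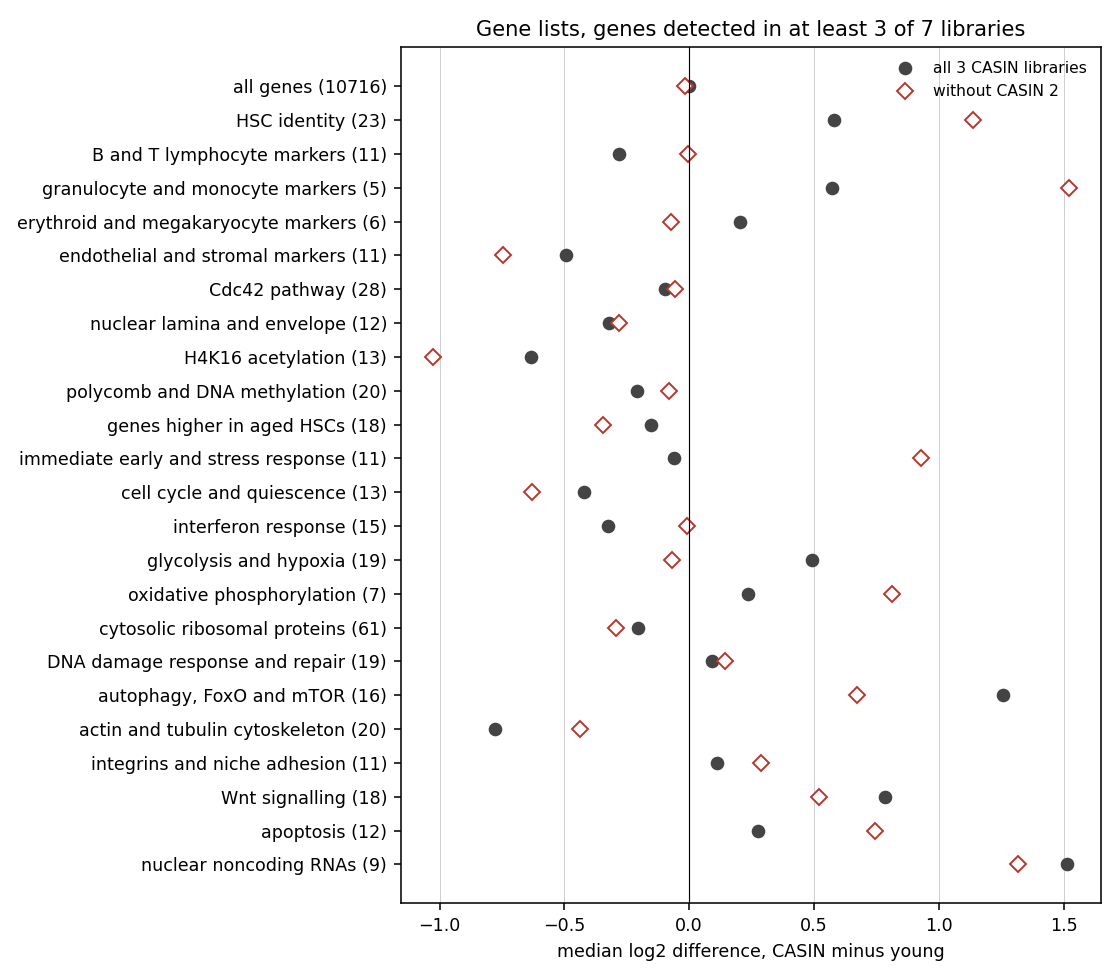
Median log2 difference (CASIN minus young) of each gene list over its genes detected in at least 3 of the 7 libraries, whose number is in brackets. Filled circles use all 3 CASIN libraries and open diamonds leave out CASIN 2. The median over all 10716 such genes is 0.00 with CASIN 2 and -0.02 without it. For HSC identity (23 genes) the 2 symbols stand at 0.58 and 1.14. Over all 36 genes of that list the medians were 0.21 and 0.04, against -0.09 and 0.04 over all genes. Over all members of each list, the median changed sign without CASIN 2 in 9 of 25 lists.

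By position, 21184 genes (94.0%) could be placed on a chromosome. Chromosome 11, whose homologs the study examined, held 1618 of them, with 9 higher and 9 lower at an unadjusted p under 0.01 (1.11%, against 1.07% of all genes) and a median difference of -0.10.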

How the data were processed

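The RNA-seq libraries comprised 4 of young, 5 of untreated aged and 3 of CASIN-treated aged LT-HSCs. Libraries were prepared with a single-cell RNA-seq kit. According to the methods, the authors filtered paired-end reads (phred score above 20) and aligned them to mm10 with TopHat (submitters' processing notes name both) before Cufflinks. The authors deposited log2 values for 22548 genes, which share their highest value of 16.09 in all samples but differ in the share of genes at the lowest value. They look quantile normalized, with tied genes given one value. The step from Cufflinks to these values is not given in the sources used here. Quantile normalization hides differences in total RNA, and with no counts the depth is unknown.

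Values were used as deposited. Differences between groups came from limma 3.58.1 run in R 4.3.3 (linear model and eBayes, two-sided, no filter or covariate) in one fit of 12 samples and 3 groups, with Benjamini-Hochberg adjustment over all genes. The test was tried on simulated data. Shares were compared with exact permutation tests over all assignments of the samples, in Python 3.11.15. Gene positions are from RefSeq (GRCm38.p6, the assembly of mm10). No batch is given in the labels.

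The compared samples, gene lists and tests were chosen with earlier results of these data known. Genes were named by rule: without CASIN 2, up to 6 per direction with an adjusted p under 0.05; of non-overlapping genes, the 8 smallest p per direction; of the detection sets and of genes detected throughout, the leading 5; in each list up to 4 with an unadjusted p under 0.05; and Cdc42 and genes the study names. Some genes that this rule names are not reported here. Alternatives were a fit of 7 samples, a common lowest value, centring, 2 filters, a pseudocount of 0.1 in place of 1 and array weights. Others were limma-trend, a detection covariate, the replicate block and each sample left out. In every range of adjusted p given over the alternatives, the upper end came from limma-trend.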

Additional observations from a re-analysis of the deposited data

Results flagged for a closer look

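In 11 of the 81 named genes 1 young library stood far from the other 3. The usual chance rate of about 1 in 20 groups does not apply to these genes, many of which were chosen for low young values. In 7 of them (Polr1d, Ube2k, Ipo9, Usp32, Pak2, Nr4a1 and Hk1) the other 3 young libraries were undetected, at nearly equal lowest values, so that any signal stands apart by construction. The young group alone was large enough to be examined, since groups of 3 are not tested. The single library was the only young one with a signal, or the highest, in 8 genes. These were young 4 for Polr1d (2.03), Ube2k (3.35), Usp32 (3.58), Pak2 (4.23) and Nr4a1 (4.43), young 3 for Ipo9 (3.92) and Hk1 (6.41), and young 5 for Pgbd1 (7.20). Acer1 had its lowest young value in young 5 (7.22). Col1a1 was undetected in young 2 (0.67) and Lrp5 in young 5 (0.65), while the other young libraries detected them.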

How the results depend on the processing

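Of 1585 alternative values of the 81 named genes, 1573 kept their direction and 12, in 3 genes, did not. Ptprc turned to 0.14 with a pseudocount of 0.1 and to 0.51, 1.16 and 1.21 without young 2, young 3 and CASIN 1 (-1.10 to 1.21 with 1 library left out). Hoxb4 turned to 0.59 with the detection covariate, 0.57 without young 3, 1.14 without CASIN 2 (also 1.14 with 6 samples only and with the detection filter) and 1.31 when centred as well (-2.07 to 1.14 with 1 library left out). Cdc42 turned to -0.25 without young 2 and -0.41 without CASIN 3 (-0.41 to 2.90 with 1 library left out, and 3.35 with the replicate block). The cause was not tested.

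The number of adjusted calls, 0 in the full fit, was 5 with 7 samples only, 3 with a common lowest value, 2 with array weights, 7 with the detection covariate and 1 to 45 with 1 library left out. Without CASIN 2, settings chosen after seeing the data gave 126 (6 samples only), 47 (centred) and 1 (detected in at least 3 of 7). Genes with an unadjusted p under 0.01 were 167 higher and 75 lower, 77 higher with a mean of at least 3 (fewer genes tested), 96 and 32 with limma-trend, 130 to 278 and 40 to 108 with 1 library left out, and 271 (6 samples only) and 281 (centred) higher without CASIN 2. Centring moved all differences by -0.10 log2 units. Genes detected in all young and no CASIN libraries were 16 above a log2 value of 1, 23 above 3 and 0 to 150 with 1 library left out. The reverse set held 91, 66 and 169 to 938 genes. Non-overlapping genes, 518 in all, were 848 to 1865 with 1 library left out, as fewer libraries have to separate. The difference in genes detected was -3.0 to 26.2 points with 1 library left out, and turned negative only without CASIN 2.

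Replicate numbers 2 and 3 occur in both groups. Deviations of same-numbered libraries correlated at -0.033 and -0.012, and those of differently numbered libraries at -0.024 to 0.033. With so few same-numbered pairs, this cannot tell whether the numbers pair the samples. With the replicate block the adjusted count was 0, and 215 genes were higher and 60 lower at an unadjusted p under 0.01.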
